A study of Homo sapiens with 3 samples.

Results

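Chromosome 1 was examined in methylation libraries of Hep3B, an established human hepatocellular carcinoma cell line, as the 285594 CpGs read on it in any of 3 libraries, out of 3225751 CpGs read in all. All rows of chromosome 1 were taken. The last CpG of the short arm lies at position 121485391 and the first of the long arm at 142536065 (GRCh37), with no CpG read over the 21.05 Mb between them. The short arm held 170441 of the CpGs and the long arm 115153. The chromosome was chosen by its read dosage in these same libraries, that is by a share of reads that differed from the parental share, so read dosage is described below with no test. The libraries were 1 of parental Hep3B cells (Hep3B-gDNA, treatment given as parental cell) and 1 from each of 2 SOX4 knockout lines, labelled Hep3B SOX4 KO #1 and KO #2 and called line 1 and line 2 here. The lines were made with CRISPR/Cas9 from Hep3B, and the labels give no other allele, agent or treatment for them. The paper reports puromycin in the culture medium of the knockout cells and does not state it for parental cells. Any effect of it cannot be told apart from the knockout here. SOX4 binds DNA as a transcription factor of the SRY-related family. Each line is represented by 1 library, whether a line came from 1 cell is not given in the sources used here, and the edited site was not analysed here. The question the study put to these libraries was how SOX4 bears on gene expression through DNA methylation.

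DNA methylation at CpGs is copied to the new strand at each cell division by maintenance methyltransferases. CpG-dense promoters are mostly free of it, while intergenic and intronic CpGs are mostly methylated and lose part of it in many tumours. Tumour cells also gain and lose whole chromosome arms, and an additional copy of the long arm of chromosome 1 is among the most common gains of liver cancer. In a captured library the number of reads follows the number of copies of the target and the efficiency of its capture, and within 1 library these cannot be told apart.

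Promoters on both arms were among the places where both knockout lines differed most from the parental library, and 5 of them are shown to give the context of the CpGs measured. TP73 encodes a p53-related transcription factor, and the promoter shown is the downstream of its 2 RefSeq promoters that could be placed. MSH4 encodes a meiotic protein of the MutS family. SHC1 encodes an adaptor protein of receptor tyrosine kinase signalling. INAVA encodes an adaptor of innate immune signalling and of epithelial junctions. ESRRG encodes an orphan nuclear receptor related to the oestrogen receptors. Each sequence is the 250 bases before the start, 5′ to 3′ on the strand of the gene, from RefSeq (GRCh38.p14), with its CpGs in capitals. The positions are those of the deposited files (GRCh37), found by matching the spacing of CpGs.
TP73, chr1:3614360-3614609, plus strand: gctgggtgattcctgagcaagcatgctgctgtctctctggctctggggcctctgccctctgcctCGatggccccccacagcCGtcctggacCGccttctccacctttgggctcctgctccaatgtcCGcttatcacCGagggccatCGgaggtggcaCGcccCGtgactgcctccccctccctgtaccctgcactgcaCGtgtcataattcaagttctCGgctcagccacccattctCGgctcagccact
MSH4, chr1:76262317-76262566, plus strand: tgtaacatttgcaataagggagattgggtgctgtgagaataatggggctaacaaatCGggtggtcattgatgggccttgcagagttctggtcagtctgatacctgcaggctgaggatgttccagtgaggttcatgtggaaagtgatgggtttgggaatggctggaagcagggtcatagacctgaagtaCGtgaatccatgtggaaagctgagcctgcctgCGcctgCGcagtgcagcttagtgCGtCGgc
SHC1, chr1:154943224-154943473, minus strand: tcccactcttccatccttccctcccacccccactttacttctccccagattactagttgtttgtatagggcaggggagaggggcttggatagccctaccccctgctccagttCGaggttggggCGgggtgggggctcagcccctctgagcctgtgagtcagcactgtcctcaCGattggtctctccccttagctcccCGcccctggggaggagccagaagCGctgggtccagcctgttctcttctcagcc
INAVA, chr1:200863778-200864027, plus strand: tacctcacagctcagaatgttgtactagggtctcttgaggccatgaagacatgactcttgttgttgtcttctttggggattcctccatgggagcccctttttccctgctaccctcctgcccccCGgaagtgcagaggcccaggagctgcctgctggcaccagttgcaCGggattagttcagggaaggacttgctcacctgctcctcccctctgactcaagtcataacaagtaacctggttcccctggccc
ESRRG, chr1:217262961-217263210, minus strand: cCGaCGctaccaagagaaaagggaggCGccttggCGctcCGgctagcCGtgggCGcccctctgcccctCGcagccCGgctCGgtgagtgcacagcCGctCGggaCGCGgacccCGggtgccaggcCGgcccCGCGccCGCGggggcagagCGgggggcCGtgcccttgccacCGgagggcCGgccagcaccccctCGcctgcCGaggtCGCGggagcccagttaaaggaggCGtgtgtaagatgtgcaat
The printed stretch held 29 CpGs for ESRRG, 11 for TP73, 6 for MSH4, 5 for SHC1 and 2 for INAVA, so it ranged from CpG-dense to CpG-poor.

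The files held 104702738 (parental), 96987706 (line 1) and 133170621 (line 2) reads in CpG context, of which chromosome 1 took 10069422, 10555202 and 13727050 reads. The long arm was read deeper than the short arm in every library. Its mean depth was 51.1 reads per CpG in parental cells, 58.9 in line 1 and 73.9 in line 2, against 24.6, 22.1 and 30.6 on the short arm. In each library the long arm lay above and the short arm below all 21 other autosomes, each taken whole. The long arm was thus 2.08 times as deep as the short arm already in parental cells, with medians of 30 and 18 reads. The ratio was 2.66 in line 1 and 2.41 in line 2. The 1 Mb from 228 Mb alone held 1075440 of the 5882448 parental reads of the long arm, and so raised its mean. In the parental library this ratio was 1.65 to 2.41 over 5 classes of CpG density. On chromosome 1, 202375 CpGs reached 10 reads in each of the 3 libraries, 107443 on the short arm and 94932 on the long arm, and methylation was compared at these.

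Read dosage, the share of the autosomal reads of a knockout library that fell in a region divided by the parental share, was above 1 in 104 of the 105 bins of 1 Mb of the long arm in each line. It was 1.24 in line 1 and 1.14 in line 2 on the long arm, a knockout mean of 1.19 ± 0.0758 (SD, n = 2). On the short arm it was 0.973 in line 1 and 0.980 in line 2, a mean of 0.976 ± 0.00498 (SD, n = 2). Line 1 also exceeded line 2 on the long arm, by a ratio of 1.09, while on the short arm their ratio was 0.993. The spread of the parental value itself is unknown, since the parental cells had 1 library.

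Over bins of 1 Mb, the 105 bins of the long arm had a median dosage of 1.26 in line 1 (SD 0.0634) and 1.13 in line 2 (SD 0.0426). The 119 bins of the short arm had medians of 0.985 (SD 0.0574) and 0.987 (SD 0.0429). In line 1, 103 of 105 long arm bins were at or above 1.1 against 5 of 119 short arm bins, where 12.3% of all autosomal bins were. In line 2 the counts were 87 and 1, where 9.3% of all autosomal bins were. These bins were chosen by the same values, so the counts describe the chromosome and carry no support. Of the long arm bins, 103 lay above the highest short arm bin in line 1 and 60 in line 2. Line 2 lay between the parental value of 1 and line 1 in 103 of 105 long arm bins, and among the bins at or above 1.1 in line 1, which line 1 itself picked, its change was 0.512 (median, SD 0.109) of the change of line 1. On the short arm line 2 lay between them in 57 of 119 bins.

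**Figure D1:**
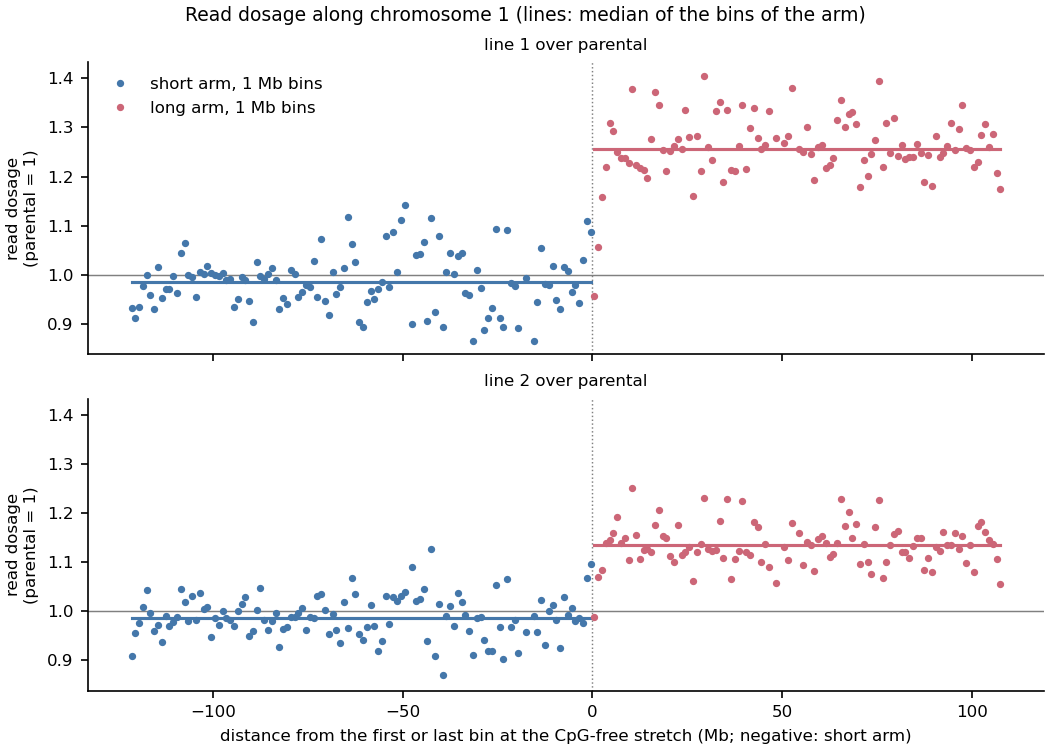
Read dosage over parental (y axis, parental = 1) of each 1 Mb bin of chromosome 1 by its distance in Mb from the CpG-free stretch around the centromere (x axis), for line 1 (top) and line 2 (bottom). Points are bins, coloured lines are the median of each arm, and a single step separates medians of 0.985 and 1.26 in line 1 and of 0.987 and 1.13 in line 2.

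A least-squares segmentation of the log2 dosage found 2 segments in each comparison. The edge lay at 144 Mb in line 1, with mean dosages of 0.986 before it and 1.26 after it. In line 2 it lay at 143 Mb, with means of 0.988 and 1.13. For line 1 over line 2 the edge was at 144 Mb too, between 0.998 and 1.11. The first 2 bins of the long arm thus fell in the lower segment in line 1 and the first 1 in line 2. With bins of 2 Mb the edge of line 2 lay at 120 Mb, within the short arm. The short arm bins at 120 and 121 Mb had dosages of 1.11 and 1.09 in line 1 and of 1.07 and 1.096 in line 2. Across the stretch without CpGs, the bin at 142 Mb was at 0.957 in line 1 and 0.988 in line 2, the lowest of the long arm in both. The bin at 143 Mb was at 1.06 and 1.07, and the bin at 144 Mb at 1.16 and 1.08. These first bins held very deep CpGs, with 586 parental reads per CpG between 142.8 and 143 Mb, against 51.1 over the arm. Leaving out the first 3 bins of the arm was an added alternative, and the arm dosage stayed within the spread between the lines.

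The bins that stood highest and lowest did not form segments. Among long arm bins the highest of line 1 was at 171 Mb (1.41, with 1.23 in line 2) and the highest of line 2 at 152 Mb (1.25, with 1.38 in line 1). On the short arm the highest were at 72 Mb in line 1 (1.14, with 1.04 in line 2) and at 79 Mb in line 2 (1.13, with 1.12 in line 1). The lowest were at 106 Mb in line 1 (0.865, with 0.990 in line 2) and at 82 Mb in line 2 (0.869, with 0.895 in line 1).

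The long arm step was found in each class of CpGs that was read. The classes split the same reads by which the chromosome was chosen, so a step in each of them carries no support. Dosage on the long arm was 1.25 in line 1 at CpGs under 20% methylated, 1.201 at CpGs of 20 to 80% and 1.25 at CpGs over 80%, and in line 2 it was 1.14, 1.12 and 1.14. It was 1.26, 1.24 and 1.25 in line 1 at CpGs with 1 to 4, 5 to 19 and 20 or more CpGs per kb. Reads of the forward strand gave 1.21 and those of the complementary strand, which carried 84.8 to 85.2% of the long arm reads, gave 1.25. Of the 21 other autosomes, each taken whole, only chromosome 11 had a higher dosage than the long arm, at 1.31 in line 1 and 1.14 in line 2. The lowest was chromosome 21, at 0.763 and 0.886. Arms of other autosomes were not set against the long arm, and chromosome 1 as a whole was at 1.13 and 1.07.

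**Figure D2:**
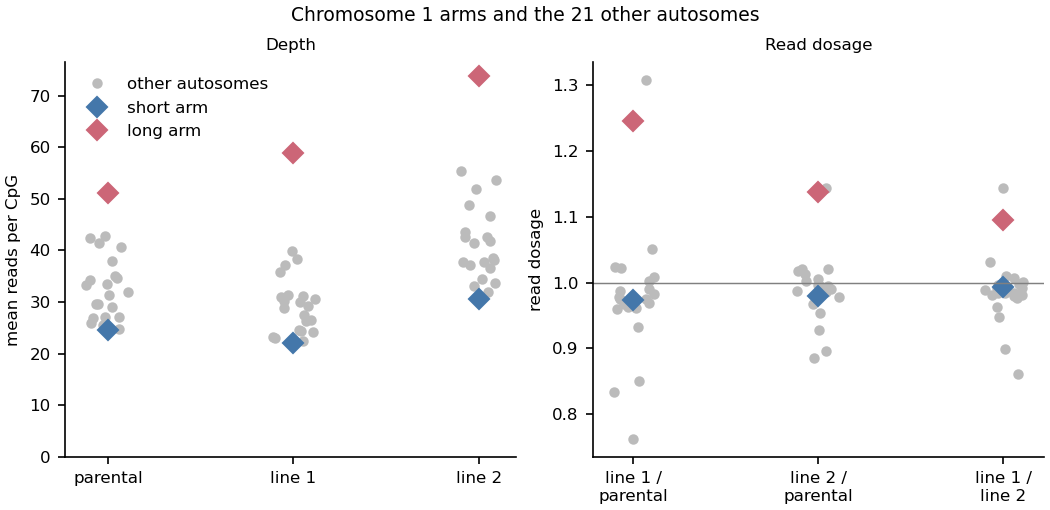
Left, mean reads per CpG (y axis) in each library for the short arm and long arm of chromosome 1 (diamonds) and the 21 other autosomes (grey points). Right, read dosage (y axis) in the 3 pairs of libraries. The long arm is the deepest of the regions shown in every library, and its dosage of 1.24 in line 1 is exceeded by 1 whole autosome.

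At some cytosines part of the reads did not hold a CpG, as at a base that differs between copies. The share of reads that did was computed at each cytosine, without the library totals used for dosage. The number of copies can enter both, so the share is not a measure independent of dosage. With at least 20 reads on the strand in all 3 libraries and a share pooled over them of 25 to 75%, 254 cytosines of the long arm and 125 of the short arm were used. The median long arm distance of the share from 50% was 13.9 points in parental cells, 17.5 in line 1 and 16.5 in line 2. The short arm gave 12, 10.8 and 11.9 points, and 3480 cytosines of the other autosomes gave 13.6, 13.6 and 13.5. The share lay farther from 50% than in the parental library at 150 of the 254 long arm cytosines in line 1. In line 2 it did so at 145, against 60 and 59 of 125 on the short arm. These were 59.1% and 57.1% on the long arm and 48.0% and 47.2% on the short arm. On the other autosomes they were 51.1% and 48.7%. The parental library was again lowest on the long arm with a pooled share of 35 to 65%, with distances of 8.00, 8.62 and 8.33 points, but the short arm then had the same order, with 6.91, 8.31 and 7.92. Neighbouring cytosines share reads and copies, so no p-value is given.

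Mean methylation was lower in both knockout lines than in the parental library on both arms, and with CpGs counted equally more so on the long arm. On the long arm the level was 41.4% in parental cells, 36.9% in line 1 and 38.9% in line 2, with a knockout mean of 37.9% ± 1.42 (SD, n = 2) that differed from parental by -3.55 points. On the short arm the levels were 39.99%, 36.5% and 38.3%, with a knockout mean of 37.4% ± 1.27 (SD, n = 2) that differed by -2.61 points. Line 1 differed from parental by -4.55 points on the long arm and -3.51 on the short arm, and line 2 by -2.54 and -1.71 points. The arms thus differed in these differences by -1.04 points in line 1 and -0.831 in line 2. Weighting each CpG by its reads moved this difference between the arms, in the knockout mean, from -0.938 to -0.100 points. Line 1 then differed from parental by -3.21 points on the long arm and -3.25 on the short arm, so the order of the arms turned in it, and line 2 by -2.10 and -1.87 points.

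Of the 21 other autosomes, each taken whole, 6 had a larger fall of the mean level than the long arm in line 1. In line 2, 1 had a larger fall. By contrast 17 of 21 had a larger fall than the short arm in each line. Over all other autosomes together the differences were -4.07 points in line 1 and -2.13 in line 2. The long arm therefore lay beyond that mean and the short arm short of it, both within the range of single autosomes, -5.10 to -2.87 points in line 1 and -2.58 to -1.48 in line 2. Level by chromosome and dosage rest on the same reads, and no test was run on them.

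**Figure D3:**
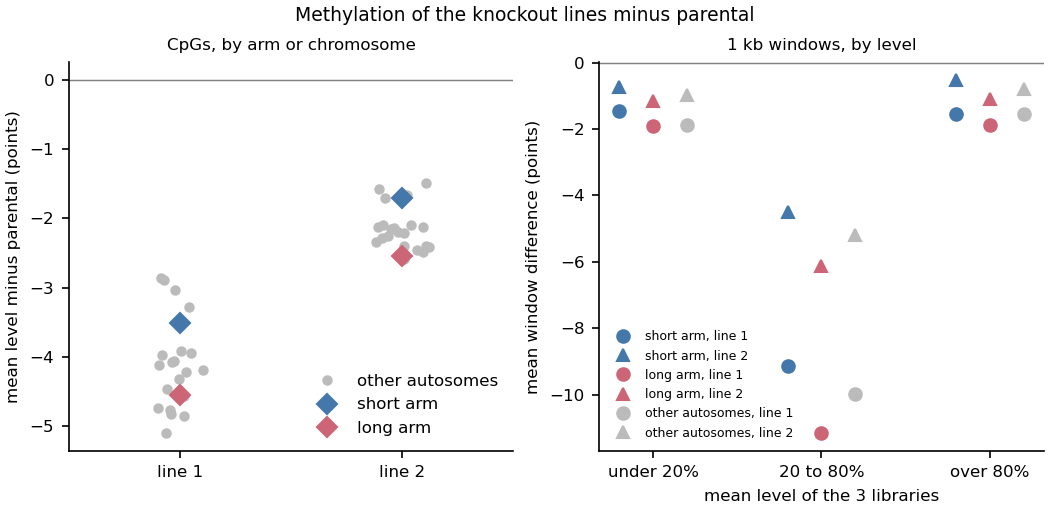
Left, mean CpG level minus the parental level in percentage points (y axis) for the chromosome 1 arms (diamonds) and the 21 other autosomes (grey points) in each line. Right, mean difference of 1 kb windows by their level class, circles for line 1 and triangles for line 2. The long arm lies below the short arm in each class and line, with -11.2 against -9.14 points in line 1 in windows of 20 to 80%.

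Windows of 1 kb with at least 5 CpGs numbered 5323 on the short arm and 4764 on the long arm, and were classed by the mean of the 3 libraries. A window that changed by much therefore falls in the middle class through the change itself, and the classes are compared here between arms only. In windows of 20 to 80% the mean difference from parental was -11.2 points in line 1 and -6.12 in line 2 on the long arm (1717 windows). The 1777 such windows of the short arm gave -9.14 and -4.51 points, and those of the other autosomes -9.99 and -5.20. In windows under 20% the differences were -1.91 and -1.16 points on the long arm and -1.46 and -0.731 on the short arm. Over 80% they were -1.87 and -1.11 on the long arm and -1.56 and -0.520 on the short arm. The long arm was lower than the short arm in each of these classes and lines.

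By CpG density, the median window difference shrank as CpGs grew denser. On the long arm windows with 5 to 9 CpGs had medians of -3.28 points in line 1 and -2.12 in line 2, those with 10 to 19 CpGs -2.40 and -1.36, and those with 20 or more -0.443 and -0.257. The short arm followed the same order with smaller values, -2.45 and -1.34, then -1.37 and -0.588, then -0.272 and -0.152. Sparse windows are also the more methylated ones, at a parental mean of 61.7% with 5 to 9 CpGs and 22.5% with 20 or more on the long arm.

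Windows that differed by at least 25 points from parental were mostly lower. In line 1, 218 windows of the long arm (4.58%) and 188 of the short arm (3.53%) were lower, where 4.15% of the 113184 windows of all chromosomes were. In the same line 15 and 26 were higher, against a background of 0.416%. In line 2, 39 windows of the long arm (0.819%) and 30 of the short arm (0.564%) were lower, with a background of 0.628%, and 3 and 8 were higher, with a background of 0.0901%. Lower in both lines were 36 windows of the long arm (0.756%) and 23 of the short arm (0.432%), where the background was 0.551%. Higher in both were 3 and 8 windows, 0.063% and 0.150%, against 0.068%. The parental library is shared by both comparisons, so these counts are not independent of each other. Between the lines, 27 and 45 windows were lower in line 1 than in line 2 on the long and short arm, against a background of 0.786%, and 4 and 6 were higher, against 0.116%. Shares of lower windows were thus within a factor of 1.5 of the background on both arms, above it on the long arm and below it on the short arm against parental.

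Single CpGs were compared by 2-sided Fisher exact tests, adjusted by Benjamini-Hochberg. A CpG was called where the adjusted p was under 0.05 and the levels were 25 points or more apart. Such a test sets 1 library against another and says nothing of spread within a condition. In line 1, 4988 CpGs of the long arm (5.25%) and 3969 of the short arm (3.69%) were lower than parental, where 4.46% of the 2238764 CpGs tested were, and 426 and 661 were higher, against 0.599%. In line 2, 1029 (1.08%) and 558 (0.519%) were lower, against 0.713%, and 76 and 102 were higher, against 0.0831%. Lower in both lines were 916 CpGs of the long arm (0.965%) and 463 of the short arm (0.431%), with a background of 0.6%. Higher in both were 54 and 75, with a background of 0.0581%. Line 1 was lower than line 2 at 1059 and 965 CpGs, against 1.07%, and higher at 105 and 169, against 0.184%.

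These shares depend on depth, which differed between the arms. With every CpG thinned to 10 reads in each library, an alternative chosen after the data had been seen, 0.0190% of the long arm CpGs and 0.0400% of the short arm CpGs were lower in line 1, so the order of the arms turned. These are few CpGs, and in line 2 none was called. At 10 reads the test can call only very large changes in either line. The turn at 10 reads therefore does not set depth apart from the size of the change called. Thinning each CpG to the smallest depth of the 3 libraries kept the order in line 1. It gave 4.31% of the long arm and 2.81% of the short arm, and evens the libraries but not the arms. With the difference called raised to 50 points the order in line 1 turned as well, with 1.53% of the long arm and 1.74% of the short arm. The mean level difference between the arms in the knockout mean was -0.943 points with every CpG thinned to 10 reads. Shares of lower windows kept their order at 10 reads, with 1.18% of the long arm and 0.770% of the short arm lower in both lines. The shares higher in both lines turned, with 0.168% of the long arm and 0.150% of the short arm.

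Line 2 stood between the parental library and line 1 at most windows changed in both lines. It did so in 35 of the 36 long arm windows and 19 of the 23 short arm windows that were lower in both lines, and in 3 of 3 and 6 of 8 of those that were higher. Such counts for windows of other autosomes are not given here. The mean level of the other autosomes had the same order, with 43.1% in parental cells, 39.0% in line 1 and 40.9% in line 2. This order is therefore not particular to chromosome 1.

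Along the chromosome the fall was widespread, with lower mean levels than parental in 223 of 224 bins of 1 Mb in line 1 and in 224 in line 2. The mean level of each of the 21 other autosomes was lower in both lines as well, so this is not particular to chromosome 1. No share of their bins is given here. The bin at 96 Mb of the short arm went from 78.1% in parental cells to 51.3% in line 1 and 65.6% in line 2, over 95 CpGs. The long arm bin at 217 Mb, which holds ESRRG promoters, went from 57.5% to 35.9% and 45.9%, over 387 CpGs. The only bin of line 1 not below parental, at 45 Mb, differed by 0.101 points. Beside the dosage edge the differences of line 1 were -3.09 points at 121 Mb, -6.18 at 142 Mb, -6.24 at 143 Mb and -4.25 at 144 Mb.

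The relation of dosage and methylation over bins was weak. Across 224 bins Pearson's r of dosage and the methylation difference was -0.195 in line 1 and -0.260 in line 2 (Spearman's rho -0.295 and -0.314). Within the short arm r was -0.328 and -0.366, and within the long arm -0.347 and -0.205. The bins share libraries, the parental library enters both quantities, and base composition and depth differ between bins, so these values are descriptions and have no p-value.

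The windows with the largest changes in both lines were ranked on each arm by whichever line had changed less. On the short arm the largest rise was in the window starting at 3614001, over the TP73 promoter, with 30.2% in parental cells, 65.8% in line 1 and 70.6% in line 2 over 9 CpGs. Its pooled reads gave 95% exact Clopper-Pearson intervals of 23.8 to 36.9%, 58.7 to 76.0% and 65.4 to 76.9%, which at most cover counting error. A read that spans several CpGs is counted at each of them, so these intervals, here and below, are too narrow. Both lines lay above the parental library there, and the intervals of the lines overlapped. The window starting at 45106001, 8.31 kb from the closest placed promoter, of RNF220, was at 3.12%, 69.3% and 34.7%, and all 10 of its CpGs were called higher in line 1. Line 2 lay between the other libraries there. The windows starting at 16479001 (47.0%, 77.6% and 77.0%) and 22676001 (25.6%, 56.1% and 55.7%) had nearly the same level in both lines.

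On the long arm the window starting at 154942001, 0.174 kb from the SHC1 promoter, was at 34.0% in parental cells, 91.7% in line 1 and 71.4% in line 2 over 13 CpGs. The pooled reads gave intervals of 28.9 to 38.4%, 88.9 to 94.9% and 64.7 to 74.97%, which did not overlap but are too narrow, as said above. The window starting at 161397001 was almost free of methylation in the parental library (0.130%, 760 reads) and reached 33.3% in line 1 and 31.1% in line 2, with 10 and 9 of its 10 CpGs called. The window starting at 200864001, which overlaps the INAVA promoter by 77 bases, was at 9.72%, 84.3% and 38.9%. The fourth, starting at 246793001, was at 57.1%, 89.8% and 81.1%, and its rise of 24.03 points in line 2 was below the 25 points called.

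Among the falls of the short arm, the window starting at 86936001 was at 93.0% in parental cells, 15.9% in line 1 and 44.8% in line 2 over 7 CpGs, all called lower in line 1 and 0 in line 2. The windows starting at 76779001, 30582001 and 48285001 went from 69.5%, 79.1% and 74.1% to between 17.2% and 39.4% in line 1 and between 33.2% and 43.2% in line 2. On the long arm the window starting at 241753001 was at 86.7%, 23.6% and 46.9%, with 6 and 5 of its 6 CpGs called lower in line 1 and line 2. The window starting at 217113001, between 2 placed ESRRG promoters, was at 83.4%, 18.4% and 48.4%, with intervals of 82.9 to 89.1%, 19.6 to 25.4% and 50.1 to 56.9% for its pooled reads. The windows starting at 209961001 (79.3%, 24.3% and 42.0%) and 183908001 (98.3%, 45.1% and 61.2%) also had line 2 between the parental library and line 1. Whether these windows are exonic or intronic was not analysed here.

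**Figure D4:**
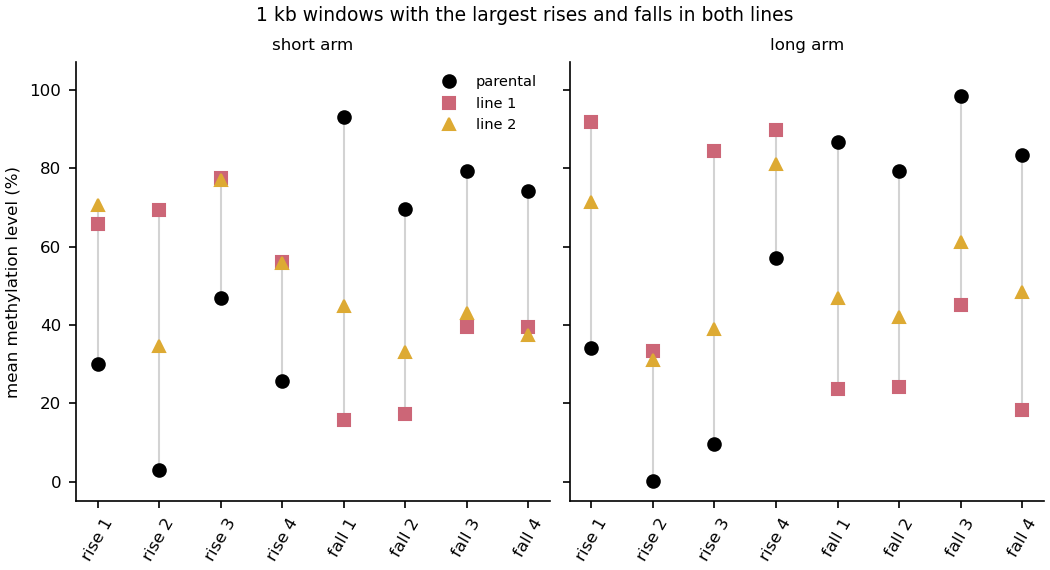
Mean methylation level in percent (y axis) of the 4 windows with the largest rises and the 4 with the largest falls in both lines on each arm (x axis, in order of rank), in the parental library (circles), line 1 (squares) and line 2 (triangles). Line 1 is the farther line from parental in all 8 long arm windows, and in 6 of the 8 short arm windows.

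Of 3598 RefSeq promoters of chromosome 1, 1646 could be placed on it and 1472, of 1243 genes, had at least 5 usable CpGs, 787 on the short arm and 685 on the long arm. Most were unmethylated. Under 20% were 85.5% of the short arm promoters in parental cells, 87.0% in line 1 and 86.1% in line 2, and on the long arm 82.8%, 83.8% and 83.5%. Lower by at least 10 points in both lines were 28 of the 685 promoters of the long arm and 16 of the 787 of the short arm. Higher were 3 and 2. Over both arms together these were 2.99% and 0.34% of the 1472. Promoters of other chromosomes were not examined, so these shares have no outside background.

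TP73 had the largest rise of a promoter on the short arm, from 29.99% to 62.2% in line 1 and 69.2% in line 2 over 8 CpGs. Depth there was low in line 1, with 102 reads over the 8 CpGs against 184 and 224, and only 1 of its CpGs was called in each line. Line 1 was below parental at the CpGs at -88 bases (9.09% against 12.5%) and -13 bases (21.4% against 26.3%) from the start. At the rest it was above. The other placed TP73 promoter had 1 usable CpG, and no level is given for it. FAAP20, which encodes a protein of the Fanconi anaemia core complex, went from 65.2% to 85.1% and 83.9%. PDE4B, a cyclic AMP phosphodiesterase, went from 3.12% to 13.0% and 13.2%. INAVA, on the long arm, went from 11.2% to 77.0% in line 1 and 36.3% in line 2, with 5 of 6 CpGs called in line 1 and 1 in line 2. SHC1 went from 2.62% to 61.4% in line 1, with 5 of 5 CpGs called, and to 15.9% in line 2, with 0 called. BCAN, which encodes the brain proteoglycan brevican, went from 57.0% to 83.4% and 69.9%.

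The largest promoter fall in both lines on the short arm was at the uncharacterised LOC124903821, from 56.6% to 12.7% in line 1 and 31.4% in line 2. MSH4 went from 89.5% in parental cells to 41.2% in line 1 and 67.6% in line 2. At each of its 7 usable CpGs line 1 was the lowest library and line 2 lay between the others. SGIP1, which encodes an endocytic adaptor of neurons, went from 61.5% to 12.02% and 40.9%, and CSMD2, which encodes a synaptic membrane protein, from 47.8% to 23.7% and 18.5%. ELAVL4, a neuronal RNA-binding protein, went from 63.8% to 44.8% and 44.0%. Of the long arm promoters TRIM67-AS1 went from 84.2% to 37.1% and 57.4%, with 6 and 4 of 8 CpGs called. ESRRG went from 58.3% to 20.7% and 39.8%, with 13 and 2 of its 24 usable CpGs called lower. ANKRD45 went from 64.8% to 40.6% and 43.2%, and PACERR, an antisense RNA at the PTGS2 promoter, from 32.7% to 4.94% and 14.8%.

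**Figure D5:**
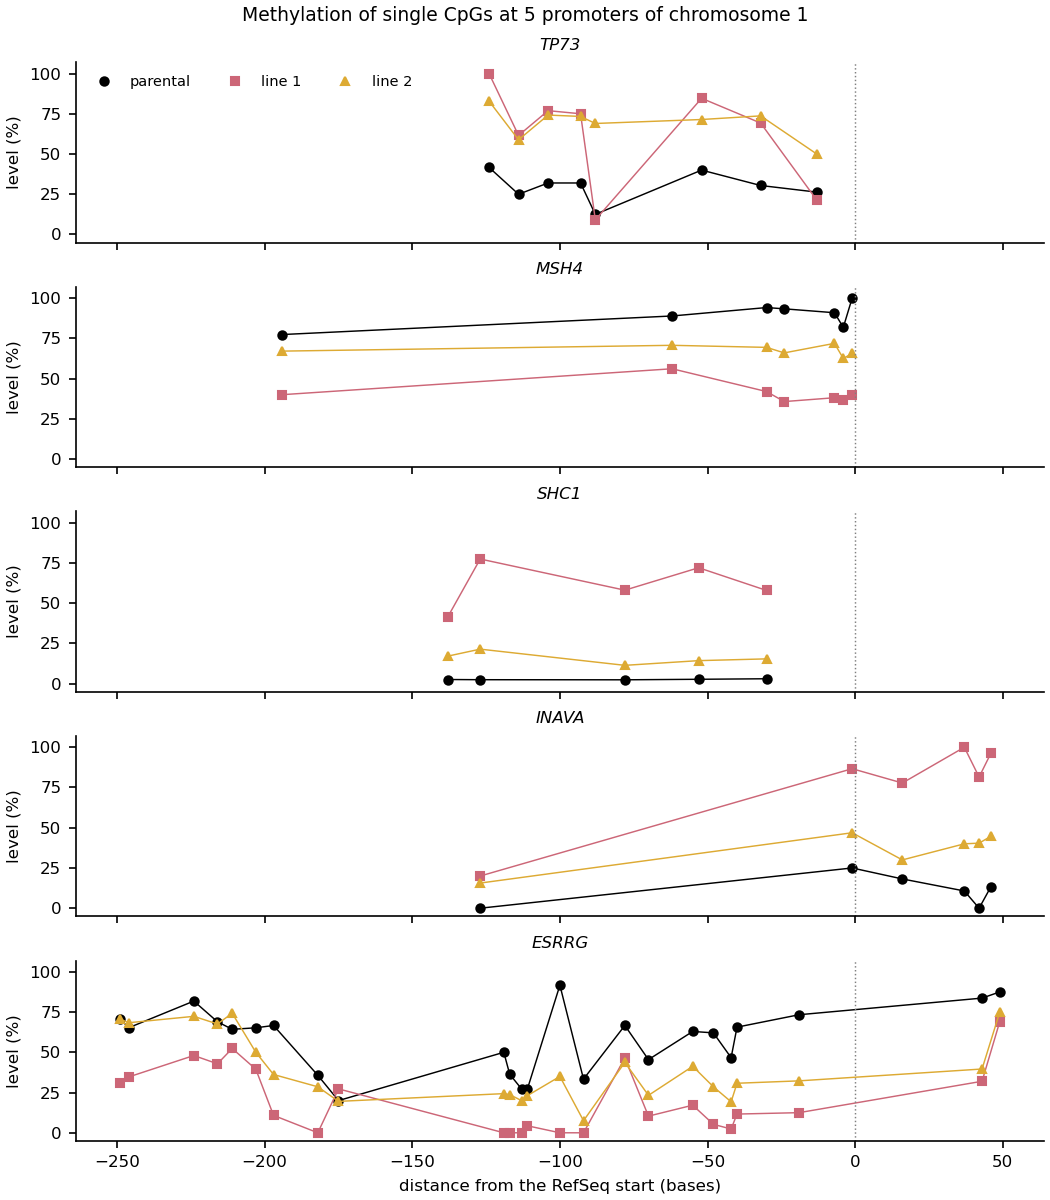
Methylation level in percent (y axis) of single CpGs by distance in bases from the RefSeq start (x axis, negative before it) at the 5 promoters whose sequences are printed, in the parental library (circles), line 1 (squares) and line 2 (triangles). SHC1 and INAVA are highest in line 1, while line 1 is lowest at every CpG of MSH4 and at most CpGs of ESRRG.

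Genes of each arm known in liver cancer or liver function were listed with earlier results known. Of 10 listed for the short arm, 4 had a usable promoter, and of 15 listed for the long arm, 7 had one. TP73, one of the 4, is described above. DIRAS3, an imprinted tumour suppressor, was at 94.6% in parental cells, 91.5% in line 1 and 90.3% in line 2 over 19 CpGs. RUNX3, a tumour suppressor silenced by methylation in several cancers, was at 11.9%, 5.19% and 10.9%. The promoters of CDKN2C, an inhibitor of cyclin-dependent kinases, were at or under 3.45% in all libraries. The long arm promoters of CHD1L, SETDB1, CKS1B, MDM4, PARP1 and AGT were each at or under 2.20% in all libraries. These include CHD1L, a chromatin remodeller and candidate oncogene, MDM4, an inhibitor of p53, and AGT, the liver-made angiotensinogen. MUC1, a membrane mucin, was at 65.9%, 47.7% and 58.4%. Genes not placed included CHD5, ARID1A and GSTM1 of the short arm and MCL1, BCL9, CRP, APCS, APOA2, NR1I3, SERPINC1 and ATF3 of the long arm.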

How the data were processed

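DNA from parental Hep3B cells and 2 SOX4 knockout lines was sheared to 150 to 200 bp, captured with the TruSeq Methyl Capture EPIC probes from 500 ng of DNA, treated with bisulfite and sequenced. Bisulfite leaves methylated C as C and turns other C into T. For each cytosine the deposited files give counts of reads (on the strand, in CpG context, methylated) that the authors did not normalize, and a methylation level as a fraction that the authors computed as methylated over context reads. The build is GRCh37 (hg19) per the labels. The aligner, filters and treatment of PCR duplicates are not given in the sources used here.

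Reads of both strands of a CpG were summed, and a CpG is named by the position of its G. Bins of 1 Mb needed 100 CpGs and 1000 parental reads. Log2 dosage was segmented by least squares with a penalty factor of 4 and at least 3 bins. Levels are means over CpGs read 10 times or more in every library. Fisher exact tests were adjusted over all CpGs and were tested on simulated data. The parental group has 1 library, so p-values compare libraries. Named windows are the 4 largest rises and falls of each arm in both lines, and named bins the highest and lowest of each arm and those beside an edge. The members and lists were chosen with earlier results of these data known.

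An annotation of GRCh37 was not used here. RefSeq promoters (300 bases, GRCh38.p14) were placed by the spacing of their CpGs alone, with at least 6 CpGs matched, a choice made after seeing the data. Of 1647 placed over the genome 1 fell on another chromosome, and 7 neighbouring pairs on chromosome 1 were out of order. Promoters named are those with the largest change in both lines. In the share of reads in CpG context, reads on the strand replaced the planned total coverage, which holds both strands. Tools were scipy 1.17.1, numba 0.67.0, numpy 2.4.6, matplotlib 3.10.9 and pandas 2.3.3 under Python 3.11.15. Alternatives covered read minimums, thresholds, depth, bins, strands and each line left out.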

Additional observations from a re-analysis of the deposited data

How the results depend on the processing

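Values were compared with their alternatives 342 times, over 63 results. Of these comparisons, 206 stayed within the spread between the lines or within 1.5 times the count, and 136 moved beyond it. Medians and SDs of bin dosage were instead judged by the wider SD over bins of 1 Mb. The sign changed in 0, but dosages, edges, distances and counts cannot change sign. A mean with 1 line left out lies within the spread between the lines by construction, so such comparisons carry no support. The order of the arms in line 1 turned with read-weighted means, at -3.25 points on the short arm and -3.21 on the long arm. Long arm dosage was 1.21 to 1.27 in line 1 and 1.12 to 1.15 in line 2 over all alternatives. Short arm dosage, whose lines differ little, moved to 0.979 in line 1 with forward strand reads, to 0.985 in line 2 without CpGs of over 500 reads, and to 0.996, 0.987 and a mean of 0.991 when scaled to the median autosome. With 1 line left out the mean was 0.973 to 0.980 on the short arm and 1.14 to 1.24 on the long arm. Each setting gave 1 edge, at 120 Mb in line 2 with 2 Mb bins, the last bins of the short arm. No paired analysis was possible because only 1 parental library exists to pair.

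The difference of the arms in the knockout mean was -0.100 points with read-weighted means and -1.09 with 1 kb window means, against -0.938, and -1.04 to -0.831 with 1 line left out. By arm, leaving out 1 line gave -3.51 to -1.71 points on the short arm and -4.55 to -2.54 on the long arm. Median window differences, averaged over the lines, were larger in windows whose parental and line 2 levels were each 20 to 80%. The level of line 1 was not limited there, unlike in the classes by the mean of the 3 libraries. The values were -6.10, -5.44 and -5.01 points from sparse to dense on the short arm and -7.86, -6.94 and -6.00 on the long arm. With at least 20 reads the short arm median for 10 to 19 CpGs, also averaged over the lines, was -0.420 points.

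Windows higher and lower in both lines numbered 8 and 23 on the short arm and 3 and 36 on the long arm. At 10 points they were 55 and 411, and 39 and 536, and at 50 points 0 in all 4 counts. With at least 5 reads 38 were lower on the short arm and 5 higher on the long arm. With at least 20 reads 2 were higher and 9 lower on the short arm and 20 lower on the long arm. With at least 10 CpGs a window they were 2 and 1 on the short arm and 6 lower on the long arm. Thinned to 10 reads, 41 were lower on the short arm, and 8 higher and 56 lower on the long arm. One line alone gave 8 to 26 higher and 30 to 188 lower on the short arm, and 3 to 15 and 39 to 218 on the long arm.

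CpGs higher and lower in both lines numbered 75 and 463 on the short arm and 54 and 916 on the long arm. At 50 points they were 8 and 95, and 3 and 88, and at 10 points 92 were higher on the long arm. An adjusted p under 0.01 in the Fisher exact test gave 34 and 193, and 35 and 523. Thinned to the smallest depth they were 19 and 183 on the short arm and 511 lower on the long arm, and thinned to 10 reads 0 in all 4 counts, as fewer reads leave the test less to call. One line alone gave 102 to 661 higher and 558 to 3969 lower on the short arm, and 76 to 426 and 1029 to 4988 on the long arm. The counts for both lines were therefore limited by line 2.

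Distances of the context share with at least 40 reads were 9.78 points in line 2 on the short arm and 15.4 in parental cells on the long arm. At 35 to 65% they were 6.91, 8.31 and 7.92 points on the short arm and 8.00, 8.62 and 8.33 on the long arm for parental cells, line 1 and line 2. Within the short arm r over bins was -0.328 and -0.366, and within the long arm -0.347 and -0.205. The cause of these moves was not tested unless stated. Depth limits single CpGs on the short arm most, at a median of 16 to 22 reads.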

Other observations

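Other autosomes gave a frame for the arms. Chromosome 11 was the only other autosome that, taken whole, had a dosage beyond the long arm, at 1.31 in line 1 and 1.14 in line 2. Its ratio of line 1 to line 2 was 1.14, against 1.09 for the long arm. In the 200 kb pieces at the start of the long arm, dosage in line 1 was 0.998, 0.917, 1.05, 0.935 and 0.942 in the 5 pieces before 143.6 Mb, 1.17 in the piece at 143.6 Mb and 1.11 to 1.31 in those after it up to 146 Mb. Line 2 was at 0.967 to 1.03 in the first 5 and at 1.13 in the piece at 143.6 Mb. A piece at 146 Mb with 26 CpGs and 411 parental reads per CpG was at 0.955 in line 1 and 0.904 in line 2, between neighbours at 1.1997 and 1.40 in line 1. No explanation of these values was tested.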
